A study of Rattus norvegicus with 6 samples.

Results

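The Bcl2 family and the p53 response were examined through 9 rat genes, Bcl2, Bcl2l1, Mcl1, Bax, Bak1, Bid, Bbc3, Mdm2 and Cdkn1a, in colon tissue of 6 rats, the S.LEW congenic rats C1 to C3 and the S rats S1 to S3 (n = 3 per strain). The genes were chosen for their roles, with earlier results of these data known. Their probes are those whose transcript accession belongs to one of them in RefSeq. The genes had 14 probes among the 30367 on the array, and they are 9 of 15162 genes that could be named. S is the Dahl salt-sensitive rat (SS/Jr), an inbred rat prone to hypertension. The congenic strain, S.LEW(10)x12x2x3x5, has the S genome except for a short Lewis segment of chromosome 10. All 6 were males on a low salt diet (0.3% NaCl) that had received 2 injections of azoxymethane (AOM), a carcinogen of the colon, at 15 mg per kg, the first at an age of 6 weeks, and their colons were taken at 30 weeks. Rats without AOM are not among these 6, so the response to the carcinogen itself is not measured here. The labels name colon tissue and do not say how much tumor a sample held.

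Proteins of the Bcl2 family decide whether the outer membrane of the mitochondrion stays closed. Bcl2, Bcl2l1 (Bcl-x) and Mcl1 keep it closed, Bax and Bak1 form the pore that releases cytochrome c, and the BH3-only proteins Bid and Bbc3 (Puma) set the pore formers free. The transcription factor p53 is stabilized by DNA damage and switches on Bbc3 and Bax, the cell cycle inhibitor Cdkn1a (p21) and its own ubiquitin ligase Mdm2. In the intestine, p53 and Puma are known for the death of crypt cells after DNA damage.

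Each array gives a log2 signal per probe, quantile-normalized by the authors so that every array has the same distribution of signals, and signals of different probes are not compared. All 14 probes were well above background on all 6 arrays, so none of their values is a bound, and no spot was saturated. A fold change is given for the S.LEW congenic strain over S with limma, a linear model in which the 23997 probes of the table inform each other's variance. By the scan times there were 2 scans, one of C1 and the 3 S rats and one of C2 and C3. The arrays of S1 and S3 stood apart from the rest. Before quantile normalization they were also the brightest, with median intensities of 594 and 445. The median was 219 in S2 and 214 to 291 in C1 to C3. Spots well above background made up 86.3% in S1 and 87.6% in S3, against 73.8% to 83.2% on the other arrays. The part of this brightness in the results was not tested. Pearson's r of S2 over all probes was 0.967 to 0.976 with C1, C2 and C3, 0.8998 with S1 and 0.937 with S3. The results below are therefore given with S2 and without it. No probe of the table passed an adjusted p under 0.05 with all 6 rats (the smallest was 0.0843 from limma), while 13% lay under an unadjusted p of 0.05.

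Promoters are printed for 3 genes, those of Cdkn1a and Mdm2, the classical p53 targets that restrain the cell cycle and p53 itself, and of Bid, the member with the largest difference. Of the 9 genes, 7 had a promoter in the RefSeq table of the GRCr8 assembly, and Bax and Bbc3 were not among them. Each run is the 250 bases before the annotated start, read along the gene from 5′ to 3′. Capitals in Cdkn1a mark the p53 half-site consensus of 10 bases, which reads alike on both strands. Capitals in Mdm2 and Bid mark the box GGGCGG or its reverse complement CCGCCC, a binding motif of Sp1.
Cdkn1a: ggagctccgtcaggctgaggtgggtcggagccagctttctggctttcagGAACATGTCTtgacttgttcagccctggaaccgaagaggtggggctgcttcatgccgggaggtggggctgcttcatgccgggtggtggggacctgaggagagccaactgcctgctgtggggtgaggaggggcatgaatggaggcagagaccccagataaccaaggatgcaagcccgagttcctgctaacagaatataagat
Mdm2: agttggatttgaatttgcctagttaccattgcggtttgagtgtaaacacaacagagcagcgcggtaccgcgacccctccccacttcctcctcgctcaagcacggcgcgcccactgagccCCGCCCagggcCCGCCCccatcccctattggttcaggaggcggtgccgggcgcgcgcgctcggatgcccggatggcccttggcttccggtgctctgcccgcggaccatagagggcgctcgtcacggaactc
Bid: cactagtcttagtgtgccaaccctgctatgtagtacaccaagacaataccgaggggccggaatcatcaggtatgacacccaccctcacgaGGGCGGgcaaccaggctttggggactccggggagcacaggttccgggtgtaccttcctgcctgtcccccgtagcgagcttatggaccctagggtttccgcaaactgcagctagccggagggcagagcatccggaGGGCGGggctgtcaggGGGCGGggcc

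The Cdkn1a run is chr20:7150682-7150931 on the plus strand, the Mdm2 run chr7:55200792-55201041 on the minus strand and the Bid run chr4:155808320-155808569 on the minus strand. The half-site of Cdkn1a was centered 196 bases before the start. The half-site consensus occurred in 6.64% of all 33469 promoters of this length and in 1 of the 10 promoters of the members (Bcl2l1 has several). It occurred in 7 of 37 promoters (18.9%) of the other p53 targets below, with Mdm2 and Cdkn1a added. The box GGGCGG occurred 3 times in the Bid promoter and 2 times in that of Mdm2, and 30.5% of all promoters held it at least once. So did 4 of the 10 member promoters and 29 of those 37 (78.4%). These matches are letters in a window and not sites shown to be bound.

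None of the 14 probes passed an adjusted p under 0.05 between the strains. At the limits that the study used, a 2-fold change and an unadjusted p under 0.05, Bid was lower in the S.LEW congenic rats and no other member passed, 1 of 14 probes against 2.34% of all probes called lower. No member was called higher, against 3.23% of all probes. Without the limit on fold the count was the same, 1 lower and 0 higher, against 4.4% and 8.58% of all probes. The median log2 fold change of the 14 probes was -0.16, beside 0.01 over all probes. For 6 of the 14 probes the 95% interval of the difference lay within a 2-fold change in either direction.

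**Figure D1:**
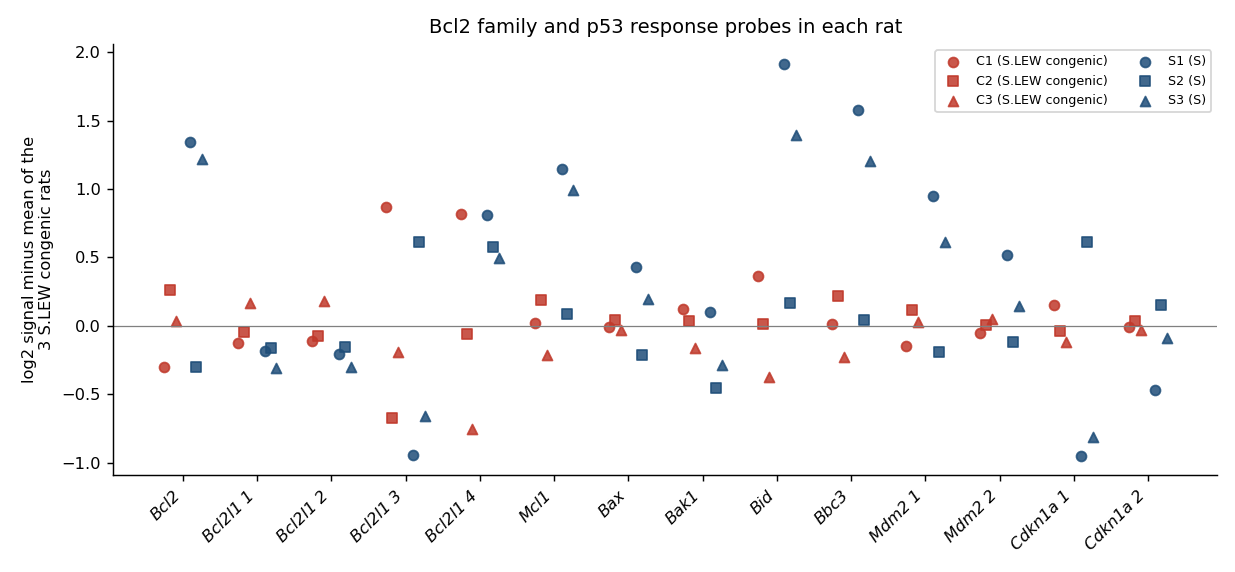
Log2 signal of each of the 14 probes in each rat, as the difference from the mean of the 3 S.LEW congenic rats (y axis, log2), with S.LEW congenic rats in red and S rats in blue, and probes of one gene numbered from the brightest. S1 and S3 lay above the 3 congenic rats at 7 probes, among them Bcl2, Mcl1, Bid and Bbc3, while S2 did not.

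Among the BH3-only genes, both were lower on average in the congenic rats. Bid, which caspase 8 cleaves to carry a death receptor signal to the mitochondrion, had a log2 signal of 8.96 in C1, 8.60 in C2, 8.21 in C3, 10.51 in S1, 8.76 in S2 and 9.99 in S3. S1 and S3 were above every congenic rat, and S2 lay between C1 and C2. The means were 8.59 ± 0.37 (SD, n = 3) for C1 to C3 and 9.75 ± 0.90 (SD, n = 3) for S1 to S3. The log2 fold change was -1.16 (SE, the standard error, 0.47, unadjusted p = 0.046 and limma adjusted p = 0.380), or 2.24-fold lower, and the two-sided exact permutation p was 0.2. With any 1 rat other than S2 left out, Bid no longer passed, with log2 fold changes from -1.34 without C1 to -0.78 without S1. Nor did it pass the methods' t-test. A fit with the scan as a block, which sets C1 alone against the S rats, gave a log2 fold change of -0.79.

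Bbc3, the BH3-only protein that p53 induces, had a log2 signal of 10.24 in C1, 10.45 in C2, 10.00 in C3, 11.81 in S1, 10.27 in S2 and 11.43 in S3. S2 again lay within the congenic range and the other S rats above it. The log2 fold change was -0.94 (SE 0.41, 95% interval -1.93 to 0.05, limma adjusted p = 0.392), so Bbc3 did not pass.

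Of the genes that keep the membrane closed, Bcl2 and Mcl1 had S1 and S3 above every congenic rat, as in Bid, and Bcl2l1 did not. Bcl2 had a log2 signal of 6.72 in C1, 7.29 in C2, 7.06 in C3, 8.36 in S1, 6.72 in S2 and 8.24 in S3, with S2 level with the lowest congenic rat. Its log2 fold change was -0.75 (SE 0.46, 95% interval -1.87 to 0.36). Mcl1, a short-lived protein of the same function, had a log2 signal of 11.59 in C1, 11.76 in C2, 11.36 in C3, 12.72 in S1, 11.66 in S2 and 12.57 in S3. S2 was inside the congenic range here too. The log2 fold change of Mcl1 was -0.74 (SE 0.32, 95% interval -1.51 to 0.02, limma adjusted p = 0.388).

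Bcl2l1 was read by 4 probes for 3 transcripts, and the probes disagreed. The brightest, A_64_P054735, had a log2 signal of 11.66 in C1, 11.74 in C2, 11.96 in C3, 11.61 in S1, 11.63 in S2 and 11.48 in S3. Every congenic rat was above every S rat, by a log2 fold change of 0.22 (SE 0.17, 95% interval -0.20 to 0.63). This is 1.16-fold, with a two-sided exact permutation p of 0.1, the smallest that 3 rats against 3 allow. A second probe of the same transcript, A_64_P008047, gave 0.22 as well and the same separation of the rats. These were the 2 of 14 member probes at which the strains did not overlap, against 12.4% of all probes with the congenic rats higher (no member had them all lower, against 5.33%). The probe A_44_P548065 ran otherwise, with C1 at 8.50 and S2 at 8.24, and the other rats between 6.69 and 7.44. Its log2 fold change of 0.33 (SE 0.54) was -0.10 without C1, 0.80 without S2 and 1.20 with the scan as a block. The dimmest, A_64_P054730, ranged from 5.78 in C3 to 7.36 in C1 and from 7.03 to 7.35 in the S rats. Its log2 fold change of -0.63 (SE 0.40) was 0.19 with the scan as a block. The scan block values of these Bcl2l1 probes rest on C1 as the only congenic rat.

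The pore formers differed little between the strains. Bax, read by 10 spots on each array, had a log2 signal of 8.90 in C1, 8.95 in C2, 8.88 in C3, 9.34 in S1, 8.70 in S2 and 9.11 in S3. The congenic rats lay within the range of the S rats, and the log2 fold change was -0.14 (SE 0.22, 95% interval -0.66 to 0.38). Bak1, which sits in the mitochondrial membrane before any signal, had a log2 signal of 12.14 in C1, 12.05 in C2, 11.86 in C3, 12.12 in S1, 11.57 in S2 and 11.73 in S3. Its log2 fold change was 0.21 (SE 0.21, 95% interval -0.30 to 0.72). The strains overlapped at both genes, and both intervals lay within a 2-fold change.

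**Figure D2:**
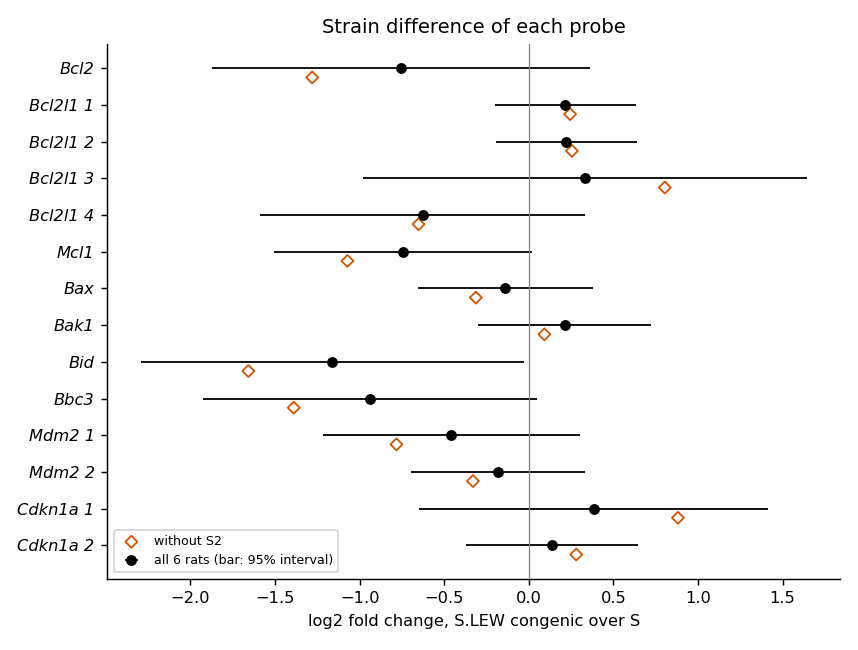
Log2 fold change of the S.LEW congenic strain over S for each probe (x axis), with all 6 rats (filled points, bars 95% interval) and without S2 (open diamonds), in the order of the plot of single rats. With all 6 rats the interval of Bid alone, -2.29 to -0.03, left out 0. Without S2 the value lay farther from 0 at every probe but that of Bak1.

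Because single rats of S differed in Bcl2 and Mcl1 more than in Bax, the difference of log2 signals within an array was also read, as a description without a test. The constant offset between 2 probes has no meaning here, and the strains are compared in the same difference. Bax minus Bcl2 was 1.89 ± 0.26 (SD, n = 3) for C1 to C3, while S1 had 0.98, S2 1.98 and S3 0.87. S2 was inside the congenic range, so the strains overlapped. Bax minus Mcl1 came to -2.69, -2.81 and -2.48 for C1, C2 and C3, and to -3.38, -2.96 and -3.46 for S1, S2 and S3. Here every congenic rat was above every S rat, with means 0.61 apart on the log2 scale. Bax minus Bcl2l1, by the brightest probe, went the other way, at -2.88 ± 0.18 (SD, n = 3) for C1 to C3 and -2.52 ± 0.36 (SD, n = 3) for S1 to S3, with S2 inside the congenic range.

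**Figure D3:**
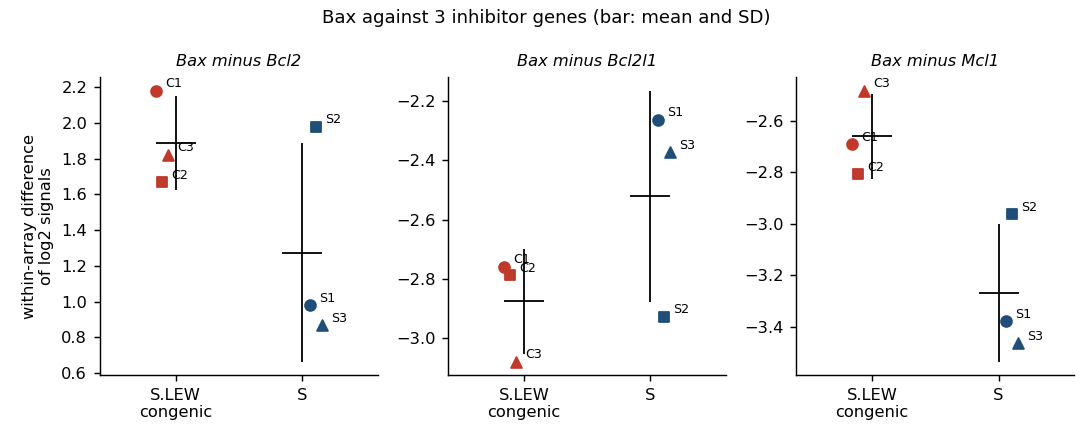
Within-array difference of log2 signals (y axis) of Bax and each of Bcl2, Bcl2l1 and Mcl1 for each rat of both strains, with bars for the mean and SD of 3 rats. The strains were apart for Mcl1, where S2 at -2.96 was the S rat nearest to the congenic rats, and overlapped for Bcl2 and Bcl2l1.

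The p53 targets outside the Bcl2 family did not pass either, and the 2 genes ran in opposite directions. Cdkn1a, which stops the cell cycle, had a log2 signal of 13.97 in C1, 13.78 in C2, 13.70 in C3, 12.87 in S1, 14.43 in S2 and 13.00 in S3 at its brighter probe. S2 was the highest of all 6 rats, and S1 and S3 were the lowest. The log2 fold change was 0.38 (SE 0.43, 95% interval -0.65 to 1.42), and at the dimmer probe it was 0.14 (SE 0.21), with S2 also highest and S1 and S3 lowest. Mdm2, which marks p53 for degradation, had a log2 signal of 10.47 in C1, 10.74 in C2, 10.65 in C3, 11.58 in S1, 10.43 in S2 and 11.24 in S3 at its brighter probe. There S1 and S3 were highest and S2 lowest, with a log2 fold change of -0.46 (SE 0.32, 95% interval -1.22 to 0.30). The dimmer Mdm2 probe gave -0.18 (SE 0.21).

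The rats of S thus differed among themselves more than the congenic rats did. The SD of the S rats was the larger one at 11 of the 14 probes, beside 70.8% of all probes. S1 and S3 lay above all 3 congenic rats with S2 not above them at 7 of 14 probes (Bcl2, Mcl1, Bax, Bid, Bbc3 and both of Mdm2), an order found at 22.2% of all probes. They lay below with S2 not below at both Cdkn1a probes, against 19.9% of all probes. Without S2, limma gave 5 member probes an adjusted p under 0.05 as lower in the congenic strain, against 10.6% of all probes, and 1 as higher, against 12.5%. These were Bcl2 (log2 fold change -1.28, adjusted p = 0.018), Mcl1 (-1.07, adjusted p = 0.019), Bid (-1.66, adjusted p = 0.019), Bbc3 (-1.39, adjusted p = 0.015) and the brighter Mdm2 probe (-0.78, adjusted p = 0.037), and, higher, the brighter Cdkn1a probe (0.88, adjusted p = 0.022). S2 was singled out from these same arrays, and its removal leaves S1 and S3, alike over all probes (Pearson's r = 0.980). That choice narrows the spread of S at these probes, so the adjusted p values are no separate support for a strain difference. With each of the other 5 rats left out in turn, no member reached an adjusted p under 0.05, and at most 1 had an unadjusted p under 0.05 (A_64_P054730 of Bcl2l1, without C1).

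Some marker means moved with this split, among them those of T cells and smooth muscle. The B cell, plasma cell and macrophage means did so too, but their markers disagreed, and Pax5, Sdc1 and Cd163 were not high in S1 and S3. The means of striated muscle, adipocyte and epithelial markers did not follow it. In whole colon, fewer cells of a type and less RNA per cell cannot be told apart. The mean log2 signal of 7 tested T cell markers of 9 (Cd3d, Cd3g, Cd4, Cd5, Cd8a, Lck and Lat) was 6.81 to 6.92 in the congenic rats, 10.19 in S1, 6.70 in S2 and 10.25 in S3. Of the 7 markers, 4 were lower in the congenic rats at an unadjusted p under 0.05, against 4.41% of the 12413 named genes. Each of the 7 was well above background on at least 2 S arrays. The 6 smooth muscle markers had a mean of 16.15 to 16.36 in the congenic rats, 14.20 in S1, 16.50 in S2 and 15.35 in S3. Colon epithelium was present by its markers, of which 9 of 10 were tested and all were well above background on all 6 arrays. Their mean was 13.19 to 13.76 in the congenic rats and 12.28 to 12.52 in the S rats. Of these 9, 7 were higher in the congenic rats at an unadjusted p under 0.05, against 10.1% of named genes. Here S2 lay with the other S rats. The 4 proliferation markers tested of 6 had a mean of 9.63 to 10.35 in the congenic rats and 9.78 to 10.77 in the S rats, with none passing. Striated muscle markers were all tested, and 3 of 6 were lower in the congenic rats, against 4.41% of named genes. Of these, Myh1 and Mybpc1 were well above background on 0 of 3 congenic arrays and on 3 of 3 S arrays. They were tested through the S arrays, so nothing is read from that count. Of 4 tested adipocyte markers 3 were higher, against 10.1% of named genes. The part of these cell types in the results on the members was not tested.

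**Figure D4:**
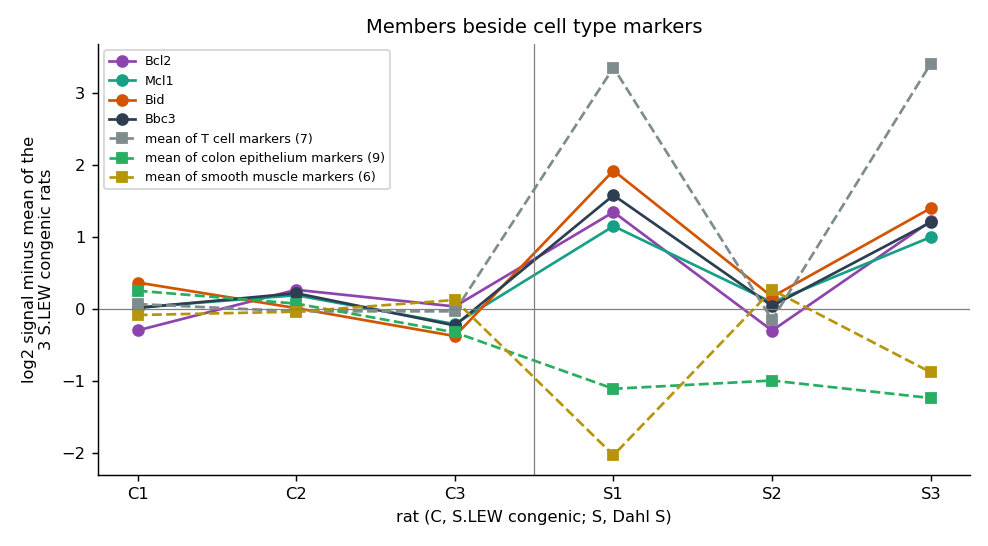
Log2 signal in each rat, as the difference from the mean of the 3 S.LEW congenic rats (y axis), for Bcl2, Mcl1, Bid and Bbc3 (solid lines) and for the mean of the T cell, colon epithelium and smooth muscle markers (dashed lines, number of genes in parentheses). The 4 members and the T cell markers were high in S1 and S3 and near the congenic level in S2, smooth muscle markers were low in S1 and S3, and epithelial markers were lower in all 3 S rats.

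Other genes of the pathway were counted with 1 probe per gene, the brightest. Of 16 other Bcl2 family genes 12 were tested, and 1 was higher and 2 lower in the congenic strain at an unadjusted p under 0.05, against 10.1% and 4.41% of the 12413 named genes. Both of the lower genes, Bcl2a1 and Pmaip1, were well above background on 0 of 3 congenic arrays and were tested through the S arrays, so nothing is read from the count lower, which was 0 among probes well above background on all 6 arrays. Without S2, 3 were higher, against 24.4% of named genes, and without C3 2 were, against 7.11%. The median log2 fold change was 0.12, beside 0.03 over all named genes. Bcl2l15, a family member known from the gut, had a log2 signal of 11.34 in C1, 11.05 in C2, 11.16 in C3, 9.71 in S1, 9.57 in S2 and 9.08 in S3. All 3 S rats, S2 included, lay well below the congenic rats, a log2 fold change of 1.73 (SE 0.23, limma adjusted p = 0.194), or 3.32-fold. Bcl2a1, an inhibitor of apoptosis abundant in blood cells, was well above background on 0 of 3 congenic arrays and 2 of 3 S arrays, with 7.49 in S1, 4.72 in S2 and 7.41 in S3. Counted as set out below, the congenic rats had at least 2.82-fold less, an approximate bound. The limma adjusted p of 0.267 is that of the signals as deposited, the congenic ones below that background, and not of the bound. For this bound each congenic array counts at its own dimmest signal that is well above background, or at the Bcl2a1 signal where that is higher. The S array that was not well above background counts at its deposited signal. An array's dimmest signal over background is not a strict limit for another probe, so such bounds are approximate. With 1 rat left out the bound was between 2.03-fold without S1 and 5.29-fold without S2. Pmaip1 (Noxa), a BH3-only gene and p53 target, was likewise not well above background in the congenic rats and lay between 4.83 and 5.60 in the S rats, at least 1.06-fold lower, a bound under 1 and so not given without C1 or without S2. Bok, a pore former related to Bax, had a log2 fold change of 0.49 (SE 0.27) and did not pass.

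Of 43 other p53 targets 33 were tested, and 3 were higher and 3 lower at an unadjusted p under 0.05, against 10.1% and 4.41% of named genes. Pmaip1, among the lower genes, was well above background on 0 of 3 congenic arrays and was tested through the S arrays. The count lower rests in part on it. The median log2 fold change was -0.11, and 13 were above 0 and 20 below. Perp, an apoptosis gene that also builds desmosomes in epithelia, had a log2 signal of 12.99 in C1, 12.94 in C2, 12.66 in C3, 11.97 in S1, 12.099 in S2 and 12.05 in S3. The strains were wide apart in it, a log2 fold change of 0.82 (SE 0.18, limma adjusted p = 0.239). Steap3, a metalloreductase of iron uptake, had one of 0.71 (SE 0.20), without overlap. Dram1, a lysosomal protein of autophagy, was 2.32-fold lower in the congenic rats (log2 fold change -1.22, SE 0.30, limma adjusted p = 0.268), with 7.76 to 7.88 in the congenic rats, 9.08 in S1, 8.46 in S2 and 9.57 in S3. Of these 3 genes, none had S2 within the congenic range. The remaining calls of this list were Ak1 (0.96), higher, and Tnfaip8 (-0.92) and Pmaip1, which is in both lists, lower. Without S2 the counts were 5 higher and 10 lower, against 24.4% and 18.8% of named genes.

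All 21 genes of the apoptosome, the caspases and the mitochondrial channels were tested, and 5 were higher and 0 lower in the congenic strain at an unadjusted p under 0.05, against the same 10.1% and 4.41%. None of the 21 had an adjusted p under 0.05, and their median log2 fold change was 0.21. The 5 were Endog, Cycs, Dffa, Vdac2 and Vdac1. Endog, a mitochondrial nuclease, had a log2 signal of 9.46 in C1, 9.56 in C2, 9.36 in C3, 8.46 in S1, 8.86 in S2 and 8.55 in S3. Cycs, the cytochrome c that triggers the apoptosome and also carries electrons in respiration, had one of 14.27 in C1, 14.31 in C2, 14.12 in C3, 13.15 in S1, 13.74 in S2 and 13.45 in S3. In both genes every congenic rat was above every S rat, with log2 fold changes of 0.84 (SE 0.19, limma adjusted p = 0.248) and 0.78 (SE 0.21, limma adjusted p = 0.276). Dffa, the inhibitor of the nuclease that cuts DNA in dying cells, had a log2 fold change of 0.48 (SE 0.18), and the channel genes Vdac2 and Vdac1 had 0.62 and 0.65. Casp9, the caspase that the apoptosome activates, had a log2 fold change of 0.11 and did not pass. With 1 rat left out in turn the count of higher genes was 2 to 5. Without C1, C3, S1 or S3 it was 2, against 6.34%, 7.11%, 6.47% and 4.96% of named genes in that order. It was 2 with the replicate number as a block and 1 with the scan as a block. Without S2 the counts were 5 higher and 6 lower of 21, against 24.4% and 18.8% of named genes.

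**Figure D5:**
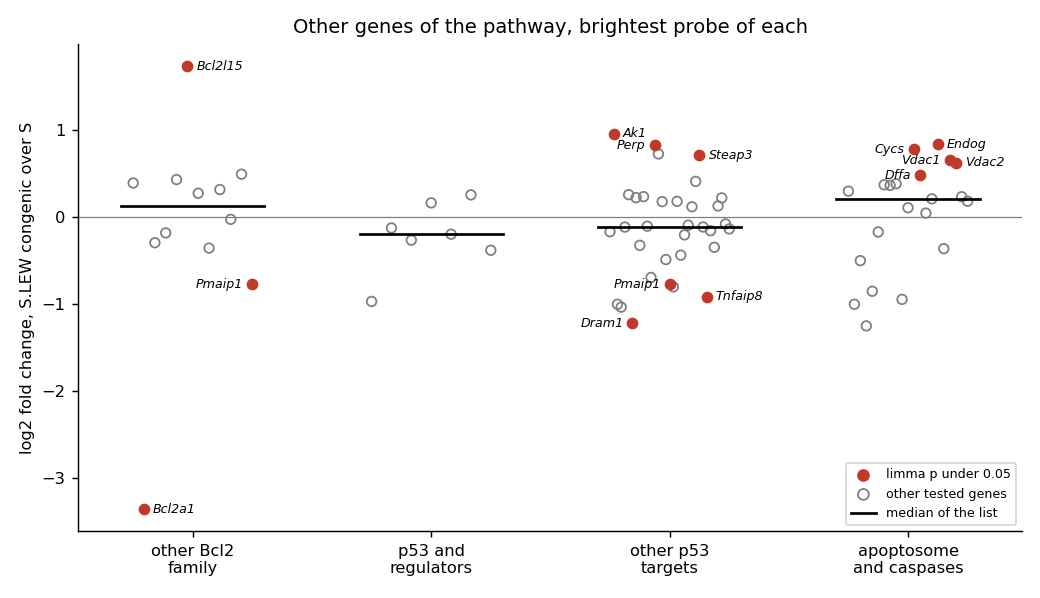
Log2 fold change of the S.LEW congenic strain over S (y axis) for each tested gene of 4 lists, with genes at an unadjusted limma p under 0.05 in red and a line at the median of each list (0.12, -0.20, -0.11 and 0.21 from left to right). The values of Bcl2a1 and Pmaip1 rest on congenic signals not well above background, and Bcl2l15 at 1.73 was the highest gene.

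Of 11 genes for p53 and its regulators 7 were tested and none passed, with 2 above 0 and 5 below and a median log2 fold change of -0.20. Atm, the kinase that signals double-strand breaks to p53, also had S1 and S3 above every congenic rat, and S2 below them, with 6.17 to 6.37 in the congenic rats, 8.29 in S1, 5.82 in S2 and 7.62 in S3. Without S2, 2 of the 7 were lower at an unadjusted p under 0.05, against 18.8% of named genes.

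The genes most alike to each member were sought among 12333 named genes outside these lists, by Pearson's r over the 6 arrays. This is a description without a test, over arrays of which S1 and S3 stand apart. For Bbc3 the most alike was Mcm3 (r = 0.9998), a helicase subunit of DNA replication, and 1640 genes had r above 0.9. For Bcl2, with 1842 such genes, it was Kiaa0040 (r = 0.999), for Mcl1 Sdad1 (r = 0.999), for Mdm2 Ppp2r2a (r = 0.999) and for Cdkn1a Tmie (r = 0.998). For Bid it was the olfactory receptor gene Or2n1n (r = 0.998) and for Bax Mppe1 (r = 0.999). Bak1 and Bcl2l1 had the fewest such genes, 76 and 177, with Slc35a4 (r = 0.987) and Ppp3r1 (r = 0.993) most alike.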

How the data were processed

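Colon RNA of 6 rats was hybridized to single-color Agilent arrays. The authors read the scanned images with Feature Extraction 11.0.1.1, and the deposited scanner files hold an intensity per spot, with the array design on rn4. The authors' normalization was by quantiles in GeneSpring, and the deposited log2 values, 23997 probes of which 23971 were well above background on 3 or more arrays, are used here. Flags for signal over background come from the scanner files (for a probe, by the majority of its spots). Accessions were matched to RefSeq genes of GRCr8, naming 17997 of 30367 probes. The fit was limma 3.58.1 (R 4.3.3) on strain alone, with Benjamini-Hochberg adjustment over all probes, and was tested on simulated data. Members and lists were chosen with earlier results of these data known. Named genes are all member probes, the 4 genes of each related list with the smallest p, any past 2-fold, and the most alike genes; others were chosen after their values were seen. Alternatives were scanner values with quantile normalization, 75th percentile scaling, normexp (offset 50), outlier spots kept or no filter, a filter on all 6 arrays, array weights, the methods' t-test, a block for replicate number or for scan, all probes of a gene, and each rat left out. Some genes of the rule and lists are not reported here.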

Additional observations from a re-analysis of the deposited data

How the results depend on the processing

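The direction of 4 named probes turned under 3 alternatives, the scan as a block, without C1 and without S1. With the scan as a block A_64_P054730 of Bcl2l1 had a log2 fold change of 0.19 and A_44_P548065 one of 1.20. With each rat left out, A_44_P548065 of Bcl2l1 ranged from -0.10 (without C1) to 0.80 (without S2), Bax from -0.313 (without S2) to 0.00898 (without S1) and A_44_P914438 of Cdkn1a from -0.0301 (without S1) to 0.280 (without S2). The count of member probes lower at an unadjusted p under 0.05, 1 with the deposited values, was 0 with scanner values unfiltered, with the methods' t-test and with the scan as a block, 2 with the filter on all 6 arrays (Bid and Mcl1), 3 with normexp and 5 with array weights, and 0 to 5 with each rat left out. Member probes higher numbered 1 with array weights and 0 to 1 with each rat left out. The weights, from the gene-by-gene estimate of limma, put S3 at 4.90 and S2 at 0.159. The default estimate of the weights did not converge and was not used.

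Over all probes, 2060 were higher and 1055 lower at an unadjusted p under 0.05. These were 6467 and 5124 with array weights, 804 and 298 with the scan as a block, and 612 were lower with the methods' t-test. With each rat left out they were 971 to 5452 and 317 to 4391, lowest without S3 and highest without S2. Other Bcl2 family genes higher were 4 with array weights and 1 to 3 with each rat left out. Those lower were 1 with scanner values (quantile-normalized, unfiltered, scaled or with outlier spots kept) and with the scan as a block, and 0 with the filter on all 6 arrays and with normexp. Other p53 targets were 6 higher and 10 lower with array weights, 1 and 1 with the scan as a block, and 2 to 5 and 2 to 10 with each rat left out. Apoptosome and caspase genes higher were 2 with the replicate block, 1 with the scan as a block and 2 to 5 with each rat left out, and those lower were 6 with array weights and 0 to 6 with each rat left out. The cause of these moves was not tested.

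The replicate numbers gave correlations of -0.02, -0.13 and -0.06 between deviations of same-numbered rats. In the study an S rat and a congenic rat shared each cage, and the labels do not say which rats did. With 3 rats per strain these correlations cannot exclude a pairing, and the main fit is unpaired. With the replicate number as a block Bid had a log2 fold change of -1.16 with an unadjusted p of 0.032 and an adjusted p of 0.458 from limma. The array headers give scan times and no slide number, so the scan stands in for the slide. In the scan block C1 is the one congenic rat beside S rats, so its value is also the value within the scan that holds both strains. With 3 rats per strain, the number of arrays limits the precision. Signal over background limited Bcl2a1 and Pmaip1: the filters on scanner values left Bcl2a1 untested, and the filter on all 6 arrays left out both, so these settings give them no value.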
